A study of Aspergillus nidulans with 48 samples.

Results

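In mycelia of the *Aspergillus nidulans* control strain, 137 of the 10988 genes in the deposited table were abundant without menadione sodium bisulfite (MSB) and at least 4-fold lower with it, which left 10851 other genes. The 137 genes were chosen by the authors' RPKM, which divides the reads of a gene by its length and by the reads of its library. A gene was selected when its mean over the 3 untreated control mycelium libraries was 10 RPKM or more and its mean over the 3 MSB-treated ones, after 0.1 RPKM was added to both, was at most 0.25 of that. RNA had been sequenced from mycelia and conidia of the double mutant Δ*atfA*Δ*atfB*, of the Δ*atfA* single mutant, of the Δ*atfB* single mutant and of the control strain THS30.3, each with MSB at 0.04 mM and untreated, on Barratt's minimal medium plates at 37 °C. Each of the 16 groups had 3 libraries, 48 in all, from separate biological replicates according to the design text. The labels write the dose as 0.04 Mm, which was taken as mM, and the genotype label of the double mutant names *atfB* in both places, so its identity rests on the sample titles. Mycelia were harvested from surface cultures before conidiophores appeared, at ages that were not given for each sample, so MSB treatment and a difference in culture age cannot be told apart.

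Menadione is a redox-cycling quinone that generates superoxide inside cells, and MSB is its water-soluble form. AtfA and AtfB are bZIP transcription factors of the ATF/CREB family. In *Aspergillus* species AtfA is known for its part in stress tolerance of conidia, downstream of the SakA/HogA mitogen-activated protein kinase. When *A. nidulans* conidiates, the regulator BrlA switches on genes that build the conidiophore and the hydrophobic, pigmented coat of the asexual spores.

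Reads summed over genes ranged between 12974631 and 36314359 per mycelium library, and between 8426329 and 24958904 per conidium library. Conidial replicates 1 and 2 of every group came from batch 1 and replicate 3 from batch 2, as the labels give it, and batch was a term of every conidial fit. The *atfA* gene (AN2911) stood at 3.50 to 5.91 RPKM in Δ*atfA*Δ*atfB* mycelia and at 11 to 15 RPKM in Δ*atfA* mycelia, against 39.4 to 75.8 RPKM in control mycelia. The conidium libraries labelled Δ*atfB* held 131 to 314 RPKM of *atfB* (AN8643), against 246 to 362 RPKM in control conidia, so the reads go against that label and every conidial value given for Δ*atfB* is one of the libraries labelled so. In mycelia *atfB* stood at 0.496 to 1.23 RPKM in the libraries labelled Δ*atfB* and at 1.37 to 3.58 RPKM in the control, too little to check the deletion well. With MSB it was higher in Δ*atfA*Δ*atfB* mycelia, at 1.17 to 1.32 RPKM, than in Δ*atfA* mycelia, at 0.542 to 0.950 RPKM, which goes against the labels, while untreated it was at 0.509 to 0.919 RPKM in Δ*atfA*Δ*atfB* and 1.51 to 1.61 RPKM in Δ*atfA*. In conidia *atfB* stood at 1.94 to 2.97 RPKM in Δ*atfA*Δ*atfB*, against 17.1 to 59.2 RPKM in Δ*atfA*, which goes with the labels. In these bulk libraries fewer cells of a type and less RNA per cell cannot be told apart.

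The values that chose the genes are given as a description, with no test. With MSB the 137 genes had a median of 8.25 RPKM, against 52.7 RPKM untreated. The ratio of the 2 means ranged between 0.0638 and 0.25 with a median of 0.169, and 36 genes were under 0.125. All 3 MSB-treated libraries lay under all 3 untreated ones for each of the 137 genes. Untreated, 37 genes reached 100 RPKM and 5 reached 1000 RPKM, and the most abundant gene, AN4575, reached a mean of 7105 RPKM. Together the 137 genes took 0.482 to 0.576% of the counts of MSB-treated control mycelium libraries, against 3.23 to 3.61% of untreated ones. Of the 5912 genes at 10 RPKM or more in untreated control mycelia the selected genes were 2.32%, and 253 genes of any level were at or under the ratio of 0.25.

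**Figure D1:**
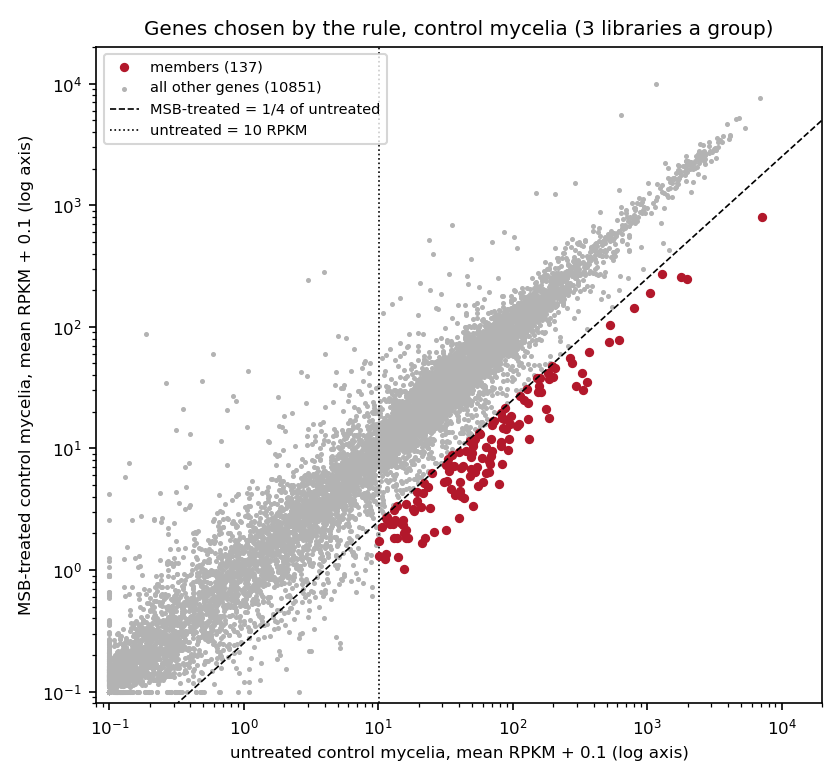
Mean RPKM of every gene in control mycelia, MSB-treated against untreated, both on log axes after adding 0.1. The 137 selected genes fill the corner right of 10 RPKM and under the line of 0.25, and a few genes lie just beyond each limit.

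Just inside the level limit lay AN4198 and AN1814, both at 10.1 RPKM untreated, and AN1920 at 10.6 RPKM. Just outside it lay AN3379 at 9.86, AN2538 at 9.77 and AN8368 at 9.57 RPKM. Just inside the ratio limit lay AN3130 at 0.25, and AN2993 and the dipeptidyl-peptidase gene *dppIV* (AN6438) at 0.249. AN7992, which passed 0.25 by less than the rounding and also reads 0.25, and AN7727 and AN8641, both at 0.254, lay just outside.

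The study's gene lists and the RefSeq table name 24 of the 137 genes and describe 81, while 56 carry no description. Secondary metabolite clusters held 12 of them, which is 14.6% of the 82 cluster genes at 10 RPKM or more in untreated control mycelia, beside 2.32% over all genes. The 12 included 4 of the 5 genes of the emericellamide (*eas*) cluster and 2 of the 3 of the microperfuranone (*mic*) cluster. Carbohydrate-active enzymes (CAZymes) supplied 13 of their 140 genes at that level. Transcription factors supplied 2 of 158, *nosA* (AN1848), a Zn2Cys6 regulator of sexual development, and *brlA* (AN0973). The list of conidiation and spore genes supplied 4 of its 7 genes at that level, *ccgA*, *ivoB*, *rodA* and *brlA*. Hydrophobins, the small secreted proteins that make fungal surfaces water-repellent, were 3 of the genes (AN6401, *rodA* and AN1837). None of the 26 antioxidative enzyme genes at that level was selected, nor any of the 14 of glycolysis, 17 of respiration and 28 of the TCA cycle. With 2.32% selected over all genes at that level, an empty list of such a length is no sign that these genes were spared. In the RefSeq table (assembly ASM1142v1) 129 of the 137 genes have a place, and 26 of them lie in 12 runs of direct neighbours, the longest with 4 genes (AN2546 to AN2549, all of the *eas* cluster).

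Most of the genes also fell with MSB in the 3 mutant strains, whose mycelium libraries had no part in the selection. At an adjusted p under 0.05 (edgeR quasi-likelihood F test, Benjamini-Hochberg adjustment over the 9199 genes tested) and a log2 fold change past 1, 114 of the 137 genes were called lower with MSB in Δ*atfA*Δ*atfB* mycelia (6.13% of all genes tested were), 73.7% of them, all but 36, in Δ*atfA* mycelia (7.53% of all) and 123 in Δ*atfB* mycelia (7.03% of all). None of the 137 was called higher in any of these strains (6.58%, 9.92% and 6.7% of all genes were, in the same order of strains). At an unadjusted p under 0.05, 4 of the 137 were above their untreated level in Δ*atfA*, 0 in Δ*atfA*Δ*atfB* and 0 in Δ*atfB*, and DESeq2 called 1 of them higher in Δ*atfA* and none in the other strains. Without replicate 1 of MSB-treated Δ*atfA* mycelia, replicate 1 or 2 of untreated Δ*atfA* mycelia or replicate 3 of MSB-treated Δ*atfB* mycelia, 1 gene was called higher in that strain. Over the 137 genes the median log2 fold change was −2.34 in Δ*atfA*Δ*atfB*, −2.72 in Δ*atfA* and −2.13 in Δ*atfB*, beside 0.00, 0.00 and −0.01 over all genes tested. The calls came with libraries that did not overlap for most genes: the MSB-treated libraries all lay under the untreated ones for 118 genes in Δ*atfA*Δ*atfB* and 126 in Δ*atfB*, and for all but 26 in Δ*atfA*. How many of all genes tested did so was not counted, so these counts describe the selected genes only.

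**Figure D2:**
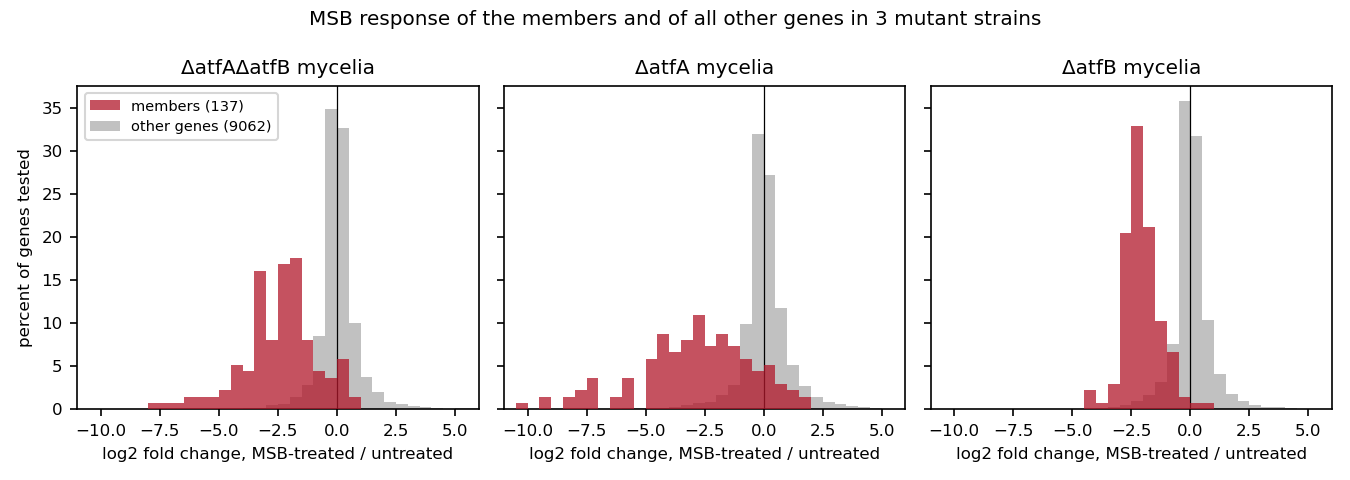
Distribution of the log2 fold change with MSB in mycelia of each mutant strain, for the 137 selected genes and for the other genes tested, as a share of each set. In all 3 strains most selected genes lie left of 0, around medians of −2.34, −2.72 and −2.13, and selected genes past −6 appear in Δ*atfA*Δ*atfB* and Δ*atfA* mycelia but not in Δ*atfB*.

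The fall was called in all 3 mutants for 95 genes, in Δ*atfA*Δ*atfB* and Δ*atfB* for 14, in Δ*atfB* alone for 11 and in none for 8. The remaining 9 genes had other combinations. The Δ*atfA* and Δ*atfA*Δ*atfB* calls, which share no library, had 97 genes in common, 96% of those of Δ*atfA* and 85.1% of those of Δ*atfA*Δ*atfB*. Over all 137 genes 83.2% were called in Δ*atfA*Δ*atfB* and 73.7% in Δ*atfA*, so these shares alone would give a large overlap. Where no fall was called in the strains without *atfA*, the gene was often scarce before treatment: the 36 genes not called in Δ*atfA* mycelia had an untreated median of 1.33 RPKM there, against 27.4 RPKM for those called. In Δ*atfA*Δ*atfB* mycelia these medians were 1.79 and 37.1 RPKM. In Δ*atfB* mycelia they were 28.6 and 67.3 RPKM, and of the 14 genes not called there 0 were under 1 RPKM untreated and 4 under 10 RPKM. Of the 8 genes called in no mutant, 7 (AN0693, AN0467, AN6881, AN2894, AN11314, AN6301 and AN5017) averaged at most 1.88 RPKM in untreated mycelia of Δ*atfA*Δ*atfB* and of Δ*atfA*. AN6881 and AN6301 are named because of these values. The other was AN5480, which encodes an RNA binding protein and stood at 118 RPKM in untreated Δ*atfA*Δ*atfB* mycelia and at 129 RPKM in untreated Δ*atfA* mycelia.

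The strains differed in level before treatment, which is described for the comparison with control mycelia without a test because those libraries chose the genes. The median of the 137 genes was 4.34 RPKM in MSB-treated and 32.9 RPKM in untreated Δ*atfA*Δ*atfB* mycelia, 1.87 and 17.6 RPKM in Δ*atfA* mycelia, 13.6 and 62.3 RPKM in Δ*atfB* mycelia, and 8.25 and 52.7 RPKM in control mycelia. Untreated, 26 genes in Δ*atfA*Δ*atfB*, 55 in Δ*atfA* and 2 in Δ*atfB* were at or under 0.25 of the untreated control level. The selection required a high level in untreated control mycelia, and the share of all genes at or under 0.25 was not counted. With MSB, 26 genes in Δ*atfA*Δ*atfB* and 53 in Δ*atfA* were under 1 RPKM, against 1 in Δ*atfB* and 1 in the control. The MSB-treated Δ*atfA*Δ*atfB* libraries were uneven, with a median over the genes of 3.17, 6.32 and 3.62 RPKM in replicates 1, 2 and 3.

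**Figure D3:**
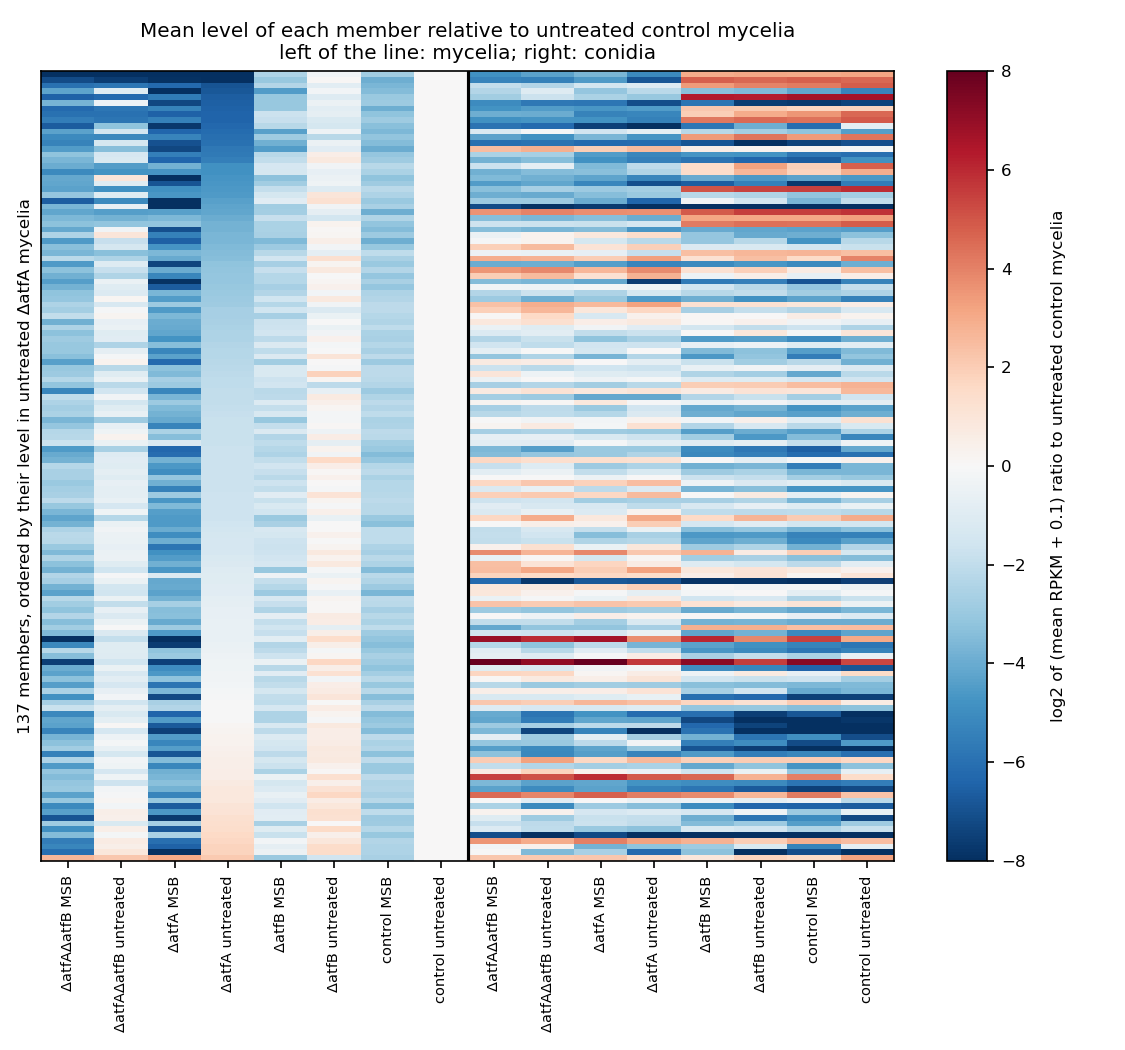
Mean level of each of the 137 genes in the 16 groups, as log2 of its ratio to untreated control mycelia after adding 0.1 RPKM, with mycelia left of the line and conidia right of it. Blue, which marks lower levels, covers most genes in the MSB-treated mycelia of every strain and part of the untreated Δ*atfA*Δ*atfB* and Δ*atfA* mycelia, and conidia are a mixture of red and blue.

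Comparing Δ*atfA*Δ*atfB* with Δ*atfB* mycelia asks what the loss of *atfA* does where *atfB* is also absent. Untreated, 72 of the 137 genes were lower and 3 higher in Δ*atfA*Δ*atfB* (7.44% and 3.55% of all genes tested were), with a median log2 fold change of −1.08. The genes were selected for a high level in untreated control mycelia, which also have *atfA*. An excess of lower genes without *atfA* was therefore partly set in advance, and the shares of all genes are not a matched background. With MSB, 95 were lower and 1 higher (7.06% and 3.11% of all), with a median of −1.59. The fall with MSB itself was larger in Δ*atfA*Δ*atfB* for 31 genes and smaller for 8 (4.38% and 2.88% of all). The count of larger falls was 47 without replicate 2 of MSB-treated Δ*atfA*Δ*atfB* mycelia, and the count of smaller ones was 5 without replicate 1 of untreated Δ*atfB* mycelia, where the 3 higher genes also became 5. By their labels Δ*atfA*Δ*atfB* and Δ*atfA* differ in *atfB*, which the reads of conidia bore out and the few reads of MSB-treated mycelia did not. Comparing their mycelium libraries sets the 2 strains side by side. There, untreated, 14 genes were lower and 47 higher in Δ*atfA*Δ*atfB* (2.6% and 4.13% of all genes), and with MSB 0 were lower and 56 higher (0.5% and 2.16% of all). With MSB, 4 genes were lower at an unadjusted p under 0.05 and 1 by DESeq2, and the 56 became 37 without replicate 2 of MSB-treated Δ*atfA*Δ*atfB*. The change with MSB was more negative in Δ*atfA*Δ*atfB* than in Δ*atfA* for 10 genes and less negative or more positive for 37 (2.54% and 2.99% of all), and the 10 became 18 without that library.

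The conidiophore genes *ivoB* and *brlA* and 1 of the 3 hydrophobin genes, AN6401, were among those that fell further with MSB in Δ*atfA*Δ*atfB* than in Δ*atfB* mycelia. The phenol oxidase gene *ivoB* (AN0231), which acts in conidiophore pigmentation, had 0.509, 1.86 and 0.522 RPKM in MSB-treated Δ*atfA*Δ*atfB* mycelia, against 209, 101.5 and 195 RPKM untreated. In Δ*atfA* mycelia it had 0.801, 0.335 and 0.494 RPKM with MSB, against 163, 369 and 417 RPKM untreated. Δ*atfB* mycelia kept 47.2, 60.4 and 107 RPKM with MSB, against 371, 276 and 273 RPKM untreated, and control mycelia had 20.5, 18.2 and 13.7 RPKM with MSB, against 103.9, 192 and 94 RPKM untreated. Treated and untreated libraries overlapped in no strain, and the treated levels were near 0 in both strains without *atfA*. In these strains that separation was a condition of the choice of *ivoB*. The log2 fold change with MSB was −7.54 ± 0.54 in Δ*atfA*Δ*atfB* (± SE, adjusted p = 7.16e-10), −9.22 ± 0.60 in Δ*atfA* (adjusted p = 9.73e-11) and −2.06 ± 0.37 in Δ*atfB* (adjusted p = 0.000135). The change in Δ*atfA*Δ*atfB* minus that in Δ*atfB* was −5.48 ± 0.64 (adjusted p = 1.33e-05).

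The hydrophobin gene AN6401 followed the same order. MSB-treated mycelia held 2.96, 8.32 and 1.23 RPKM in Δ*atfA*Δ*atfB*, 2.30, 0 and 0.503 RPKM in Δ*atfA*, and 149, 195 and 257 RPKM in Δ*atfB*. Untreated mycelia held 616, 386 and 520 RPKM in Δ*atfA*Δ*atfB*, 621, 939 and 1278 RPKM in Δ*atfA*, and 913, 710 and 709 RPKM in Δ*atfB*. Treated and untreated libraries did not overlap in any of these strains, which was a condition of the choice of this gene in Δ*atfA*Δ*atfB* and Δ*atfA*. The difference of the MSB response between Δ*atfA*Δ*atfB* and Δ*atfB* was −5.08 ± 0.67 (adjusted p = 4.54e-05). The rodlet hydrophobin gene of conidia, *rodA* (AN8803), had 0.798, 0.262 and 0.445 RPKM in MSB-treated Δ*atfA*Δ*atfB* mycelia, against 56.9, 20.2 and 34.1 RPKM untreated. Δ*atfB* mycelia had 84.1, 64.2 and 80.7 RPKM of it with MSB, against 731, 256 and 83.2 RPKM untreated, so that these untreated libraries were widely spread. For *rodA* the difference of the response was −4.01 ± 1.41, which missed the threshold (adjusted p = 0.0514) and passed it with DESeq2 (−4.05), with limma on log2(RPKM + 0.1) (−4.20) and without replicate 1 of untreated Δ*atfB* mycelia (−5.06). The other hydrophobin gene, AN1837, had 1, 0 and 1 reads in the MSB-treated Δ*atfA*Δ*atfB* libraries, against 7.40 to 16.2 RPKM untreated. It had 0, 1 and 1 reads in the MSB-treated Δ*atfA* libraries, against 4.81 to 46.6 RPKM untreated, while MSB-treated control mycelia held 1.27 to 6.92 RPKM. In Δ*atfB* mycelia it had 25.1, 20.2 and 22.5 RPKM with MSB, against 216, 74.6 and 26.2 RPKM untreated, and its responses in Δ*atfA*Δ*atfB* and Δ*atfB* were not shown to differ (adjusted p = 0.0748).

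The regulator *brlA* (AN0973) had 0.656, 0.862 and 0.570 RPKM in MSB-treated Δ*atfA*Δ*atfB* mycelia, against 18.3, 8.90 and 15.7 RPKM untreated. It had 7.93, 9.27 and 13.1 RPKM in MSB-treated Δ*atfB* mycelia, against 71.1, 42.3 and 31.2 RPKM untreated. Its MSB response in Δ*atfA*Δ*atfB* minus that in Δ*atfB* was −2.19 ± 0.54 (adjusted p = 0.00768). With limma on log2(RPKM + 1) this difference was −1.03 and was not called. By contrast, *nosA* fell to 27.4, 49.5 and 31 RPKM with MSB in Δ*atfA*Δ*atfB*, against 180, 156 and 142 RPKM untreated, and to 62.1, 85.3 and 96.6 RPKM in Δ*atfB*, against 232, 192 and 175 RPKM untreated. Its responses in these strains differed by −0.92 ± 0.29, within the fold threshold of 1 (adjusted p = 0.0317). Without replicate 2 of MSB-treated Δ*atfA*Δ*atfB*, replicate 1 of MSB-treated Δ*atfB* or replicate 1 of untreated Δ*atfB* mycelia this difference passed it, at −1.23, −1.07 and −1.03.

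Over the conidiation and spore list, 20 genes were tested in mycelia. With MSB, 4 of them were lower and 3 higher in Δ*atfA*Δ*atfB*, 6 lower and 3 higher in Δ*atfA*, and 10 lower and none higher in Δ*atfB*, and of the 16 that were not selected 1, 3 and 6 were lower in these strains. Untreated, 13 of the 20 were lower in Δ*atfA*Δ*atfB* than in Δ*atfB* and none higher. Of the 4 conidiophore markers that were not selected, 1 was lower and 2 were higher with MSB in Δ*atfA*Δ*atfB* and in Δ*atfA*, and 2 were lower in Δ*atfB*. They moved in opposite directions within a strain: *ivoC* averaged 0.0640 RPKM in MSB-treated and 1.55 RPKM in untreated Δ*atfA*Δ*atfB* mycelia, and *abaA* 7.52 and 2.50 RPKM. Their summed level was 7.94 to 9.48 RPKM in MSB-treated and 4.23 to 4.82 RPKM in untreated Δ*atfA*Δ*atfB* mycelia, 3.98 to 4.91 and 2.35 to 8.35 RPKM in Δ*atfA*, 8.84 to 10.5 and 8.65 to 36.2 RPKM in Δ*atfB*, and 7.24 to 10.8 and 5.45 to 8.73 RPKM in control mycelia. The 9 conidium markers other than *rodA* summed to 25.6 to 38.9 RPKM in MSB-treated mycelia of the 4 strains and to 34.7 to 62.7 RPKM in untreated ones. Most of these sums came from *vosA* and *yA*. The catalase gene *catA* averaged 1.38 RPKM in MSB-treated and 6.03 RPKM in untreated control mycelia, and *cetJ* 1.76 and 4.60 RPKM, while both averaged at most 0.255 RPKM in Δ*atfA*Δ*atfB* and Δ*atfA* mycelia. Of the 8 other conidium markers that could be tested, 0 were lower with MSB in Δ*atfA*Δ*atfB*, 1 in Δ*atfA* and 2 in Δ*atfB*, and none was higher. The spore genes SpoC1-C1C and SpoC1-C1D were under 1 RPKM in every mycelium group. The part of conidiophores or conidia in the selected genes' levels was not tested.

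Several genes of the cell wall and of polysaccharide breakdown also fell further in Δ*atfA*Δ*atfB*. The endo-arabinanase gene *abnC* (AN8007) had 0.393, 1.29 and 0.394 RPKM in MSB-treated Δ*atfA*Δ*atfB* mycelia, against 69.5, 46.7 and 57.4 RPKM untreated. In Δ*atfB* mycelia it had 27.9, 28.8 and 35.9 RPKM with MSB, against 79.6, 71.5 and 53.1 RPKM untreated. Both strains fell without overlap, a condition of the choice of *abnC* in Δ*atfA*Δ*atfB*, but the responses differed by −5.37 ± 0.47 (adjusted p = 6.35e-07). The chitin deacetylase gene AN9380 had 7.63, 17.3 and 6.27 RPKM in MSB-treated Δ*atfA*Δ*atfB* mycelia, against 337, 233 and 335 RPKM untreated, and 93.1, 100.7 and 160 RPKM in MSB-treated Δ*atfB* mycelia, against 681, 683 and 631 RPKM untreated. Its responses differed by −2.44 ± 0.41 (adjusted p = 0.000373). AN1941, annotated as encoding a GPI-anchored protein, differed by −3.54 ± 0.41 (adjusted p = 1.22e-05). The α-1,3-glucan synthase gene *agsA* (AN5885, named after its values were seen) differed by −2.89 ± 0.42 (adjusted p = 9.68e-05) and the α-1,3-glucanase gene *agnE* (AN1604) by −3.29 ± 0.50 (adjusted p = 0.000171). The last pair encodes enzymes that make and that cut the same wall polymer. Of the 13 selected CAZyme genes, 7 had the larger fall in Δ*atfA*Δ*atfB* and none the smaller, and of the 278 other CAZyme genes tested 10 had the larger and 10 the smaller.

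The α-glucosidase gene *agdB* (AN8953) was already lower in Δ*atfA*Δ*atfB* than in Δ*atfB* before treatment. It had 10.1, 52.2 and 18.7 RPKM in MSB-treated Δ*atfA*Δ*atfB* mycelia, against 130, 77.8 and 97.7 RPKM untreated, and 117, 116 and 147 RPKM in MSB-treated Δ*atfB* mycelia, against 974, 604 and 667 RPKM untreated. Untreated, Δ*atfA*Δ*atfB* differed from Δ*atfB* by −2.79 ± 0.42 on the log2 scale (adjusted p = 2.95e-05), and the responses of the 2 strains differed by 0.58 ± 0.56 (adjusted p = 0.510). The mannoprotein gene *mnpA* (AN10311) had 102.7, 106.3 and 91.3 RPKM in MSB-treated Δ*atfA*Δ*atfB* mycelia, against 1066, 899 and 1024 RPKM untreated (−3.34 ± 0.27, adjusted p = 4.15e-09). Of the 13 selected CAZyme genes, 12 were called lower with MSB in each mutant strain. The exceptions were AN8639, described as a trehalose-phosphate synthase, in the strains without *atfA*, and AN9069 in Δ*atfB*. Of the 278 not selected, 28 were lower and 25 higher in Δ*atfA*Δ*atfB*, 42 and 29 in Δ*atfA*, and 38 and 23 in Δ*atfB*. The selected CAZyme genes were chosen for a fall with MSB in control mycelia, so their contrast with the 278 was partly set in advance. Over all 137 genes 83.2%, 73.7% and 89.8% were lower in these strains, in the same order.

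**Figure D4:**
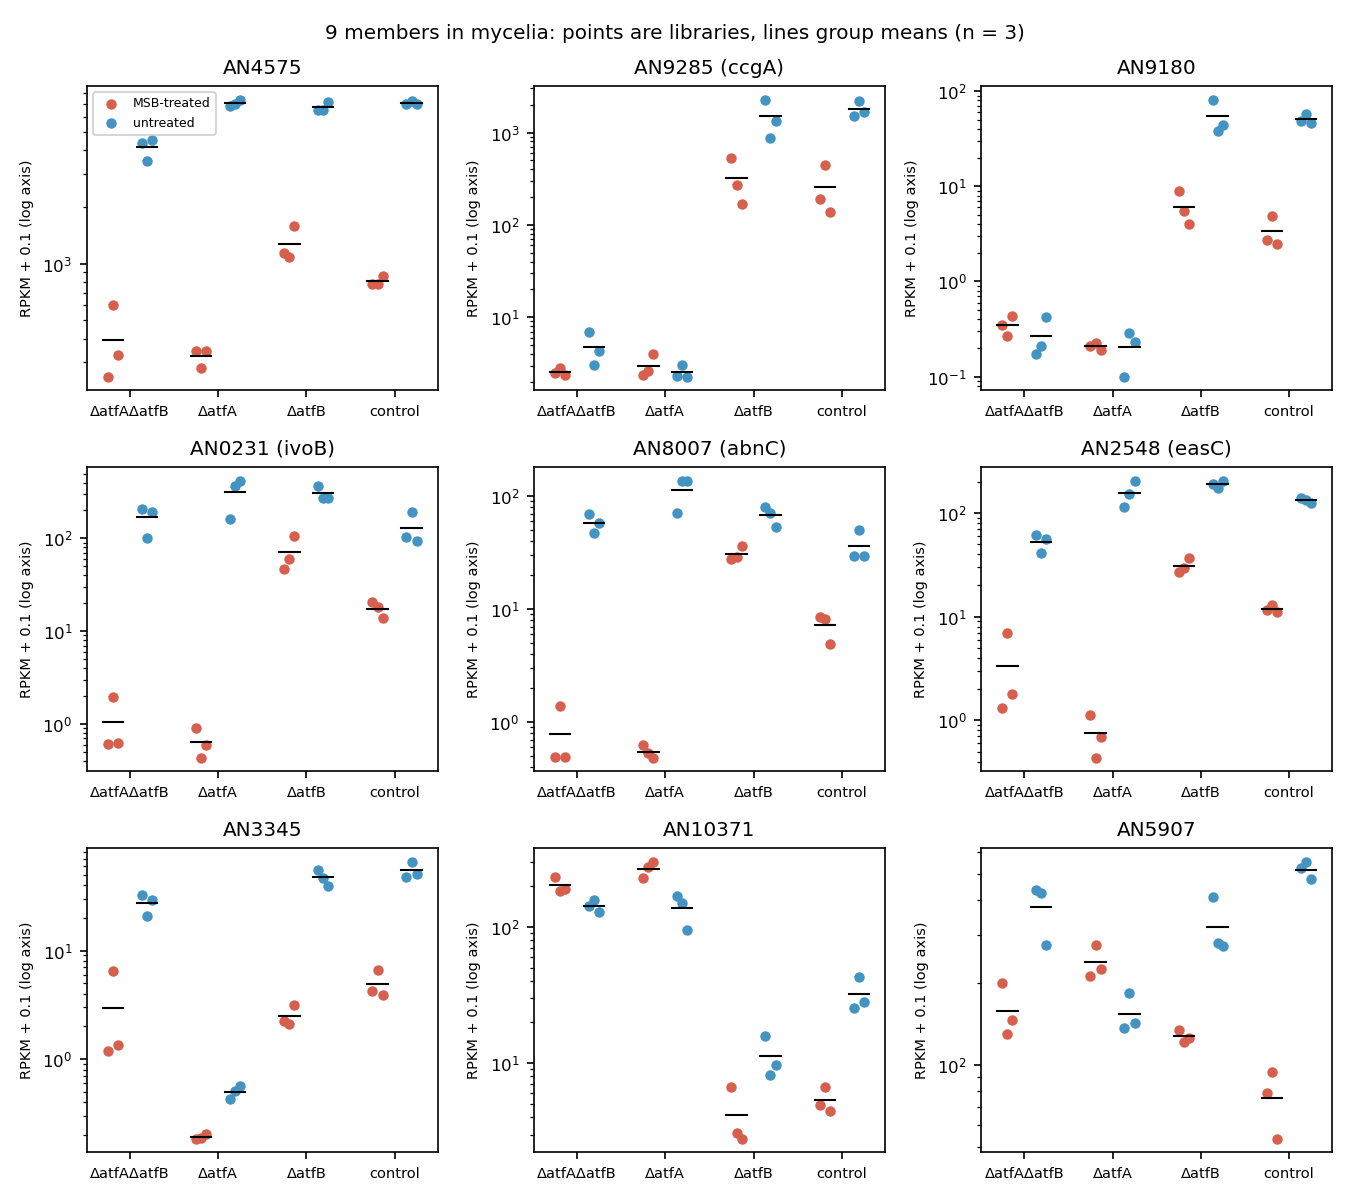
RPKM + 0.1 of 9 selected genes in each mycelium library, on log axes, with MSB-treated points left of untreated ones in each strain and lines at the group means (n = 3). *ivoB* and *abnC* reach values near 0 with MSB in Δ*atfA*Δ*atfB* and Δ*atfA*, *ccgA* and AN9180 are low in these strains with and without MSB, and AN10371 is high in them.

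A second set of genes was nearly silent without *atfA* whether or not MSB was given. The light-induced gene *ccgA* (AN9285), a homolog of *ccg-1* of *Neurospora crassa*, had 2.39, 2.75 and 2.25 RPKM in MSB-treated Δ*atfA*Δ*atfB* mycelia, against 6.85, 2.96 and 4.26 RPKM untreated. In Δ*atfA* mycelia it had 2.24, 2.52 and 3.93 RPKM with MSB, against 2.18, 2.95 and 2.18 RPKM untreated. Δ*atfB* mycelia held 529, 274 and 167 RPKM with MSB, against 2260, 874 and 1343 RPKM untreated, and control mycelia 192, 448 and 138 RPKM with MSB, against 1516, 2222 and 1656 RPKM untreated. The strains with *atfA* lay above those without it in every library. Untreated, Δ*atfA*Δ*atfB* differed from Δ*atfB* by −8.25 ± 0.56 (log2, adjusted p = 1.74e-09), and the MSB response was called in Δ*atfB* (−2.16 ± 0.40, adjusted p = 0.000183) but not in Δ*atfA*Δ*atfB* (−0.93 ± 0.68, adjusted p = 0.287). The responses of these 2 strains were not shown to differ (1.24 ± 0.80, adjusted p = 0.299). AN9180, listed with the pentose-phosphate shunt as a putative transketolase, had 12, 7 and 18 reads in the MSB-treated and 3, 6 and 13 reads in the untreated Δ*atfA*Δ*atfB* libraries. Δ*atfB* mycelia held 8.74, 5.34 and 3.93 RPKM of it with MSB, against 81, 37.8 and 44.2 RPKM untreated. Its difference between these strains without MSB was −8.28 ± 0.49 (adjusted p = 2.28e-10), and its responses did differ, by 3.77 ± 0.85 (adjusted p = 0.00401).

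The light-induced transcript AN0693 stood at 1.07 to 2.22 RPKM in untreated Δ*atfA*Δ*atfB* mycelia and at 1.09 to 1.25 RPKM in Δ*atfA*, against 36.4 to 65.1 RPKM in Δ*atfB* and 89.9 to 127 RPKM in the control. It was not called lower with MSB in Δ*atfB* either (54.1, 27.5 and 9.49 RPKM with MSB, against 65.1, 36.4 and 36.9 RPKM untreated, log2 fold change −0.57 ± 0.43, adjusted p = 0.293), where the libraries overlapped and the change passed the threshold at −1.30 without replicate 1 of the MSB-treated ones. Both *ccgA* and AN0693 belong to a list of 10 light-regulated genes, all of which were lower in Δ*atfA*Δ*atfB* than in Δ*atfB* mycelia, untreated and with MSB. That list was chosen by the study on these samples, so its direction is not independent evidence. AN8639 was at 0.363 to 0.394 RPKM in untreated Δ*atfA*Δ*atfB* mycelia, against 8.64 to 22 RPKM in Δ*atfB* (−5.14 ± 0.51, adjusted p = 2.24e-07). AN6274 and AN5017, both predicted oxidoreductases, had 1 to 4 reads per library in untreated Δ*atfA*Δ*atfB* mycelia, against 3.52 to 13.3 and 4.11 to 10.7 RPKM in Δ*atfB*. AN3996, AN6005 and AN7217 were also lower without *atfA* before treatment, with log2 differences of −6.36 ± 0.40 (adjusted p = 4.52e-10), −3.39 ± 0.38 (adjusted p = 9.93e-07) and −3.62 ± 0.29 (adjusted p = 1.62e-08) in the same comparison. For AN7217 the MSB response was 0.28 ± 0.28 in Δ*atfA*Δ*atfB*, not called, and −2.72 ± 0.27 in Δ*atfB*, and the difference of 3.00 ± 0.39 was called (adjusted p = 3.88e-05).

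Another set was low in Δ*atfA* mycelia and present in Δ*atfA*Δ*atfB* mycelia. AN3345 stood at 32.1, 20.8 and 29.1 RPKM in untreated Δ*atfA*Δ*atfB* mycelia, against 0.328, 0.413 and 0.463 RPKM in Δ*atfA*, 54.7, 46.7 and 39.5 RPKM in Δ*atfB*, and 47.6, 65.5 and 50.9 RPKM in the control. The 3 libraries of Δ*atfA* lay far below all others, and their separation from Δ*atfA*Δ*atfB* was a condition of the choice of AN3345. The log2 difference between Δ*atfA*Δ*atfB* and Δ*atfA* was 6.13 ± 0.52 (adjusted p = 2.17e-08). Its direct neighbour AN3346 differed by 5.26 ± 0.51 (adjusted p = 1.80e-07), AN6419 by 6.94 ± 0.52 (adjusted p = 3.28e-09), and AN5311, which reached 129 to 132 RPKM in Δ*atfA*Δ*atfB*, by 5.76 ± 0.43 (adjusted p = 3.32e-09).

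Part of the genes of small metabolite clusters showed the same difference, and others the opposite. All 5 tested *eas* genes were lower in untreated Δ*atfA*Δ*atfB* than in untreated Δ*atfA* mycelia, with a median log2 difference of −1.51, and in the cluster of AN2924 1 of the 4 tested genes was lower and 2 were higher. The cytochrome P450 gene CYP620D1 (AN3394) of the microperfuranone cluster had 5.84, 4.36 and 6.27 RPKM in untreated Δ*atfA*Δ*atfB* mycelia, against 0.155, 0.255 and 0.181 RPKM in Δ*atfA* (4.85 ± 0.35, adjusted p = 2.24e-09). Its neighbour AN3395, of the same cluster, differed by 5.15 ± 0.51 (adjusted p = 1.94e-07), and all 3 tested genes of the cluster were higher in Δ*atfA*Δ*atfB*. The pair AN2922 and AN2923, in the cluster named for the backbone gene AN2924, differed by 4.71 ± 0.35 (adjusted p = 3.35e-09) and 3.80 ± 0.33 (adjusted p = 3.56e-08). The CAZyme gene *chiA1* (AN8241, named after its values were seen) had 40.2, 34.6 and 37.9 RPKM in untreated Δ*atfA*Δ*atfB* mycelia, against 4.45, 3.92 and 4.66 RPKM in Δ*atfA* (3.14 ± 0.21, adjusted p = 7.84e-10). With MSB each of these genes was lower in Δ*atfA*Δ*atfB* mycelia, AN3345 at 1.08, 6.32 and 1.24 RPKM and *chiA1* at 3.29, 4.72 and 3.34 RPKM. They also stayed above the MSB-treated Δ*atfA* libraries, which held 0.0854 to 0.105 RPKM of AN3345 and 1.05 to 1.89 RPKM of *chiA1*.

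Emericellamides are cyclic lipopeptides that *A. nidulans* makes with a polyketide synthase (*easB*), an acyltransferase (*easC*), an acyl-CoA ligase (*easD*) and a peptide synthetase. The gene *easC* (AN2548) had 1.2, 6.87 and 1.67 RPKM in MSB-treated Δ*atfA*Δ*atfB* mycelia, against 60.8, 40.9 and 56.3 RPKM untreated. In Δ*atfA* mycelia it had 1.02, 0.337 and 0.596 RPKM with MSB, against 112.9, 152 and 201 RPKM untreated, and in Δ*atfB* mycelia 26.8, 29.2 and 36.4 RPKM with MSB, against 188, 174 and 203 RPKM untreated. No strain's treated libraries overlapped its untreated ones. The log2 fold change was −4.08 ± 0.39 in Δ*atfA*Δ*atfB*, −7.95 ± 0.50 in Δ*atfA* and −2.57 ± 0.34 in Δ*atfB* (adjusted p = 5.15e-08, 6.70e-11 and 4.83e-06), and the response was 3.87 ± 0.64 less negative in Δ*atfA*Δ*atfB* than in Δ*atfA* (adjusted p = 0.000354). All 5 tested *eas* genes were lower with MSB in the 3 mutants and had the less negative response in Δ*atfA*Δ*atfB* than in Δ*atfA*. For *easB* (AN2547) that difference was 3.35 ± 0.62 (adjusted p = 0.000959), for *easD* (AN2549) 2.47 ± 0.48 (adjusted p = 0.00166) and for AN2546, which lies among them, 2.55 ± 0.55 (adjusted p = 0.00352).

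A few genes did not follow these patterns. AN10371 had 233, 182 and 188 RPKM in MSB-treated and 142, 157 and 128 RPKM in untreated Δ*atfA*Δ*atfB* mycelia, and 226, 273 and 299 RPKM and 169, 149 and 95.3 RPKM in Δ*atfA*. Δ*atfB* mycelia had 6.54, 2.96 and 2.70 RPKM with MSB, against 15.7, 8.15 and 9.66 RPKM untreated, and control mycelia 4.83, 6.59 and 4.39 RPKM with MSB, against 25.1, 43 and 28.1 RPKM untreated. The strains without *atfA* were above the others in every library, and separation of Δ*atfA*Δ*atfB* from Δ*atfB* was a condition of the choice of AN10371. Δ*atfA*Δ*atfB* exceeded Δ*atfB* by 3.77 ± 0.28 on the log2 scale untreated (adjusted p = 4.82e-09) and by 5.70 ± 0.32 with MSB (adjusted p = 1.79e-10). Its neighbour AN11374 did not share this pattern: it was lower in Δ*atfA*Δ*atfB* than in Δ*atfB* untreated (−1.21 ± 0.19, adjusted p = 3.59e-05), and with MSB it fell in all 3 mutants. The ribose-5-phosphate isomerase gene AN5907 had 199, 129 and 146 RPKM in MSB-treated Δ*atfA*Δ*atfB* mycelia, against 436, 424 and 275 RPKM untreated. In Δ*atfA* it had 212, 274 and 225 RPKM with MSB, against 136, 183 and 142 RPKM untreated, a change of 0.65 ± 0.20 under the fold threshold. The 2 responses differed by −1.93 ± 0.29 (adjusted p = 0.000136). AN5975 fell with MSB in Δ*atfA*Δ*atfB* (26.9, 38.3 and 41.3 RPKM with MSB, against 178, 240 and 81.8 RPKM untreated, −2.26 ± 0.41, adjusted p = 0.000168) and was not called in Δ*atfA* or Δ*atfB* (−0.17 ± 0.39 and 0.17 ± 0.39).

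The most abundant selected genes fell in every mutant except *ccgA*, AN5480 and AN5907, described above. AN4575, which has no role assigned, had 251, 599 and 329 RPKM in MSB-treated Δ*atfA*Δ*atfB* mycelia, against 4375, 3504 and 4500 RPKM untreated, and 342, 280 and 343 RPKM in MSB-treated Δ*atfA* mycelia, against 6855, 7023 and 7383 RPKM untreated. Δ*atfB* mycelia had 1136, 1086 and 1573 RPKM with MSB, against 6529, 6555 and 7194 RPKM untreated. The fall was −3.41 ± 0.22, −4.44 ± 0.23 and −2.38 ± 0.21 on the log2 scale in these strains (adjusted p = 2.13e-10, 4.92e-12 and 2.69e-08). AN7539 had log2 fold changes of −3.29 ± 0.27, −4.11 ± 0.28 and −2.15 ± 0.26 (adjusted p = 6.72e-09, 2.57e-10 and 1.48e-06), and *esdC* (AN9121), also among the 10 most abundant, −2.48 ± 0.25, −3.45 ± 0.26 and −1.95 ± 0.25 (adjusted p = 1.05e-07, 1.13e-09 and 2.31e-06).

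In conidia, whose libraries also had no part in the selection, the genes had no common level. The median over the 137 genes was 28.8 RPKM in MSB-treated and 27 RPKM in untreated Δ*atfA*Δ*atfB* conidia, 22.8 and 21 RPKM in Δ*atfA* conidia, 15.6 and 14.1 RPKM in those labelled Δ*atfB*, and 8.04 and 12.4 RPKM in control conidia. Untreated control conidia are set beside untreated control mycelia without a test, since the 2 cell types differed in culture age and were sequenced separately. In these conidia 69 genes were at or under 0.25 of their mycelium level and 31 were more than 2-fold above it. The selection required a high level in those mycelia, and the shares over all genes were not counted. Testing was possible for 136 of the genes among 10143, all but AN3520. Fitted fold changes use relative log expression (RLE) factors, which ran between 0.692 and 1.350 in conidia and are not in the RPKM, so ratios of printed RPKM differ from the fitted values there.

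The number of genes called with MSB in conidia varied by strain, and the difference between strains was not tested. In Δ*atfA*Δ*atfB* conidia 3 of the genes were lower and 3 higher with MSB (0.631% and 0.611% of all genes tested), in Δ*atfA* conidia 22 and 17 (8.68% and 6.38% of all), in conidia labelled Δ*atfB* 4 and 8 (2.17% and 2.1% of all), and in control conidia 39 and 14 (10% and 4.6% of all). The medians were 0.06, −0.07, −0.09 and −0.43 on the log2 scale. The 39 are 28.7% of the 136 genes, and without replicate 1 of untreated control conidia they became 23. In Δ*atfA* conidia the 22 became 13 or 14 without replicate 1 or 2 of the MSB-treated or replicate 3 of the untreated libraries, and the 17 became 9 without replicate 2 of the MSB-treated ones. With 1 library left out the counts in conidia ranged from 0 to 4 lower and 0 to 12 higher in Δ*atfA*Δ*atfB*, and from 0 to 9 lower and 0 to 13 higher in those labelled Δ*atfB*, so these few calls rest on single libraries. Of the 39 genes lower in control conidia, 33 were also lower with MSB in Δ*atfB* mycelia, 84.6% of the 39 and 26.8% of the 123 called there. Over all 137 genes 89.8% were called lower there, so the share among the 39 was not above that of the whole set.

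Of the selected conidiophore and spore genes, *brlA*, *rodA* and *ivoB* were higher with MSB in control conidia. So were AN4839 and AN0230, which are in none of the conidiation, conidiophore and conidium lists. The gene *brlA* (AN0973) had 317, 321 and 162 RPKM with MSB, against 53, 84 and 82.3 RPKM untreated (1.69 ± 0.25, adjusted p = 0.000149). *rodA* (AN8803) had 19618, 19778 and 11530 RPKM with MSB, against 3389, 4681 and 5212 RPKM untreated (1.68 ± 0.43, adjusted p = 0.00605). AN4839, without a description, had 92.7, 89.7 and 57.9 RPKM with MSB, against 5.95, 7.43 and 10.4 RPKM untreated (3.03 ± 0.43, adjusted p = 0.000117). The treated libraries of these genes all lay above the untreated ones, a condition of the choice of *brlA* and AN4839 for this comparison. Replicate 3, of batch 2, was the lowest of the treated ones each time. AN0230, the neighbour of *ivoB*, rose by 2.44 ± 0.36 (adjusted p = 0.000137), and *ivoB* (AN0231) itself by 2.12 ± 0.65 (adjusted p = 0.0185) at low levels, 3.69 to 4.19 RPKM with MSB against 0.601 to 1.09 RPKM untreated. The call of *ivoB* was lost without replicate 3 of the MSB-treated or replicate 1 or 2 of the untreated control conidia, at 1.90, 1.95 and 1.79. Over the 22 conidiation and spore genes tested in conidia, 6 were higher with MSB in control conidia and 2 lower.

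Other genes fell with MSB in control conidia too. AN4575 had 8.28, 8.23 and 6.64 RPKM with MSB, against 41.9, 29.5 and 24.2 RPKM untreated (−2.12 ± 0.41, adjusted p = 0.00102). AN0467 had 162, 177 and 162 RPKM with MSB, against 1702, 1336 and 680 RPKM untreated (−2.95 ± 0.50, adjusted p = 0.000362), and AN6404 had 0.508, 0.366 and 0.625 RPKM, against 34.2, 23 and 15.8 RPKM (−5.62 ± 0.83, adjusted p = 0.000149). AN7217 changed by −2.46 ± 0.31 (adjusted p = 6.28e-05), AN5907 by −1.66 ± 0.27 (adjusted p = 0.000262) and AN10371 by −1.76 ± 0.29 (adjusted p = 0.000288). In all 6 the treated and untreated control libraries were apart, which was a condition of the choice of AN0467, AN6404 and AN7217 for this comparison.

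Genes of the set were both lower and higher in conidia without *atfA*. Untreated, 33 were lower and 52 higher in Δ*atfA*Δ*atfB* than in control conidia (19.6% and 15.8% of all genes tested), 42 lower and 52 higher in Δ*atfA* (20.4% and 18.5% of all), and 15 lower and 5 higher in those labelled Δ*atfB* (3.41% and 1.06% of all). With MSB these counts were 23 and 72 (15.1% and 14.9% of all), 26 and 61 (14.4% and 13.5% of all), and 2 and 3 (1.42% and 0.552% of all). All comparisons within a treatment share the same control libraries. The lower genes of untreated Δ*atfA*Δ*atfB* and Δ*atfA* conidia are 24.3% and 30.9% of the 136, not far above the shares of all genes, and the higher ones are 38.2% in both. On unscaled log2(RPKM + 0.1) with limma the median of all genes shifted by 0.89 in untreated Δ*atfA*Δ*atfB* and 0.83 in untreated Δ*atfA* conidia, and the untreated splits became 26 lower and 79 higher, and 29 lower and 67 higher. With MSB the shifts were 0.76 and 0.72 and the splits 18 and 94, and 21 and 84. In conidia labelled Δ*atfB* the shifts were 0.35 untreated and 0.27 with MSB, and the splits 11 and 14, and 0 and 8. In untreated conidia labelled Δ*atfB*, the 15 lower genes became 6 without replicate 1 of the untreated control and 9 without replicate 1 of those labelled Δ*atfB*, and the 5 higher ones became 1 or 2 without replicate 2 of those labelled Δ*atfB* or replicate 1 or 2 of the control.

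The 42 genes lower in untreated Δ*atfA* conidia had a median of 6.17 RPKM there, against 99.1 RPKM in control conidia. Of them 26 were also lower in Δ*atfA*Δ*atfB* than in Δ*atfB* mycelia untreated, where 72 of the 137 genes (52.6%) were. That is 61.9% of the 42 and 36.1% of the 72. The light-induced genes were among the 42. *ccgA* (AN9285) had 95, 87.4 and 89.5 RPKM in untreated Δ*atfA*Δ*atfB* conidia and 27.4, 46.5 and 85.5 RPKM in Δ*atfA*, against 17517, 12639 and 15847 RPKM in those labelled Δ*atfB* and 19639, 13199 and 15178 RPKM in the control. Both strains without *atfA* were far below the others, at log2 differences of −8.33 ± 0.48 in Δ*atfA*Δ*atfB* and −9.07 ± 0.49 in Δ*atfA* against control conidia (adjusted p = 1.99e-11 and 8.99e-12). AN0693 had 1.31 to 3.63 RPKM in untreated Δ*atfA* conidia, against 3021 to 3541 RPKM in the control (−11.14 ± 0.59, adjusted p = 6.09e-12). In mycelia *ccgA* had been selected for its fall with MSB, but in control conidia it had 13907, 15091 and 15377 RPKM with MSB and was not called (−0.22 ± 0.35, adjusted p = 0.656).

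Of the 8 selected genes described as oxidoreductases, 4 were lower and 2 higher than the control in untreated Δ*atfA* conidia, and 3 were lower and 2 higher in Δ*atfA*Δ*atfB*. The 13 selected CAZyme genes were split too, with 5 lower and 4 higher in Δ*atfA* and 4 each way in Δ*atfA*Δ*atfB*. Of the 342 other CAZyme genes tested, 72 were lower and 67 higher in Δ*atfA*. Over the 136 selected genes 30.9% were lower and 38.2% higher in Δ*atfA*, against 20.4% and 18.5% of all genes tested. These small counts therefore show nothing particular to either class. AN9180 had 0.363, 1.78 and 1.14 RPKM in untreated Δ*atfA*Δ*atfB* conidia and 0.313, 0.429 and 0.312 RPKM in Δ*atfA*, against 1202, 1256 and 1257 RPKM in the control (−10.94 ± 0.77 and −12.56 ± 0.83, adjusted p = 4.71e-10 and 1.65e-10). AN6274 stood at 0.787 to 2.76 RPKM in untreated Δ*atfA* conidia, against 1359 to 1683 RPKM in the control, and AN5017 at 0.0637 to 0.305 RPKM, against 143 to 333 RPKM. AN8639 had 9.27, 11 and 15.2 RPKM in untreated Δ*atfA* conidia, against 775, 741 and 677 RPKM in the control (−6.78 ± 0.32, adjusted p = 1.60e-12). The RNA binding protein gene AN5480 had 107, 99.3 and 136 RPKM in untreated Δ*atfA* conidia, against 4487, 2855 and 3606 RPKM in the control (−5.82 ± 0.26, adjusted p = 6.20e-13). AN6404 had 0, 2 and 0 reads in the 3 untreated Δ*atfA* libraries. The genes named with values here, other than AN5480, were also under 1 RPKM in every untreated Δ*atfA* mycelium library.

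The 52 genes higher in untreated Δ*atfA* conidia had a median of 66.1 RPKM there, against 6.54 RPKM in control conidia. AN5664 had 31.4, 30.3 and 25.7 RPKM in untreated Δ*atfA*Δ*atfB* conidia and 47.4, 59.9 and 26.7 RPKM in Δ*atfA*, against 4, 5 and 1 reads in the 3 control libraries (0.0581 to 0.411 RPKM). The difference was 6.01 ± 0.56 in Δ*atfA*Δ*atfB* and 6.65 ± 0.56 in Δ*atfA* (adjusted p = 2.54e-08 and 6.58e-09). Its neighbour, the cytochrome P450 gene CYP531D2 (AN5665), stood at 12.7 to 19.3 RPKM in untreated Δ*atfA* conidia, against 0.102 to 0.181 RPKM in the control. AN4394 had 326, 396 and 78 RPKM in untreated Δ*atfA* conidia, against 2.43, 2.52 and 2.59 RPKM in the control (5.91 ± 0.57, adjusted p = 3.69e-08), and AN9306 had 26.8, 30.9 and 15.3 RPKM, against 0.297, 0.295 and 0.336 RPKM (5.37 ± 0.60, adjusted p = 2.65e-07).

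The conidiophore genes *ivoB* and *brlA* were also among these 52, but most genes of their lists were not. Of the 22 conidiation and spore genes tested, 14 were lower and 2 higher in untreated Δ*atfA*Δ*atfB* conidia and 15 lower and 3 higher in Δ*atfA*, where the median was −2.35. Of the 10 conidium markers 8 were lower and none higher in each strain. Of the 4 conidiophore markers that were not selected, 1 was lower and 1 higher in Δ*atfA*Δ*atfB*, and 2 were lower and 1 higher in Δ*atfA*. *ivoB* (AN0231) had 22.8, 15.5 and 15.2 RPKM in untreated Δ*atfA*Δ*atfB* conidia and 46.1, 42.3 and 14.7 RPKM in Δ*atfA*, against 0.681, 0.601 and 1.09 RPKM in the control (3.54 ± 0.63 and 4.43 ± 0.63, adjusted p = 7.46e-05 and 6.11e-06). AN0230 had 410, 465 and 178 RPKM in untreated Δ*atfA* conidia, against 29.3, 33.2 and 32.4 RPKM in the control (2.56 ± 0.36, adjusted p = 5.17e-06). *brlA* (AN0973) had 291, 259 and 238 RPKM, against 53, 84 and 82.3 RPKM (1.01 ± 0.25, adjusted p = 0.00148), a call at the edge of the fold threshold that was lost without replicate 3 of untreated Δ*atfA* conidia (0.91) or replicate 1 (0.76) or 2 (1.00) of the untreated control. AN4575 had 421, 386 and 326 RPKM, against 41.9, 29.5 and 24.2 RPKM (2.78 ± 0.41, adjusted p = 9.42e-06), and with MSB 320, 425 and 467 RPKM, against 8.28, 8.23 and 6.64 RPKM (5.10 ± 0.46, adjusted p = 2.51e-08). *rodA* (AN8803) was not called in untreated Δ*atfA* conidia (−0.73 ± 0.42, adjusted p = 0.139), where its 3 libraries held 7723, 7249 and 2013 RPKM.

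**Figure D5:**
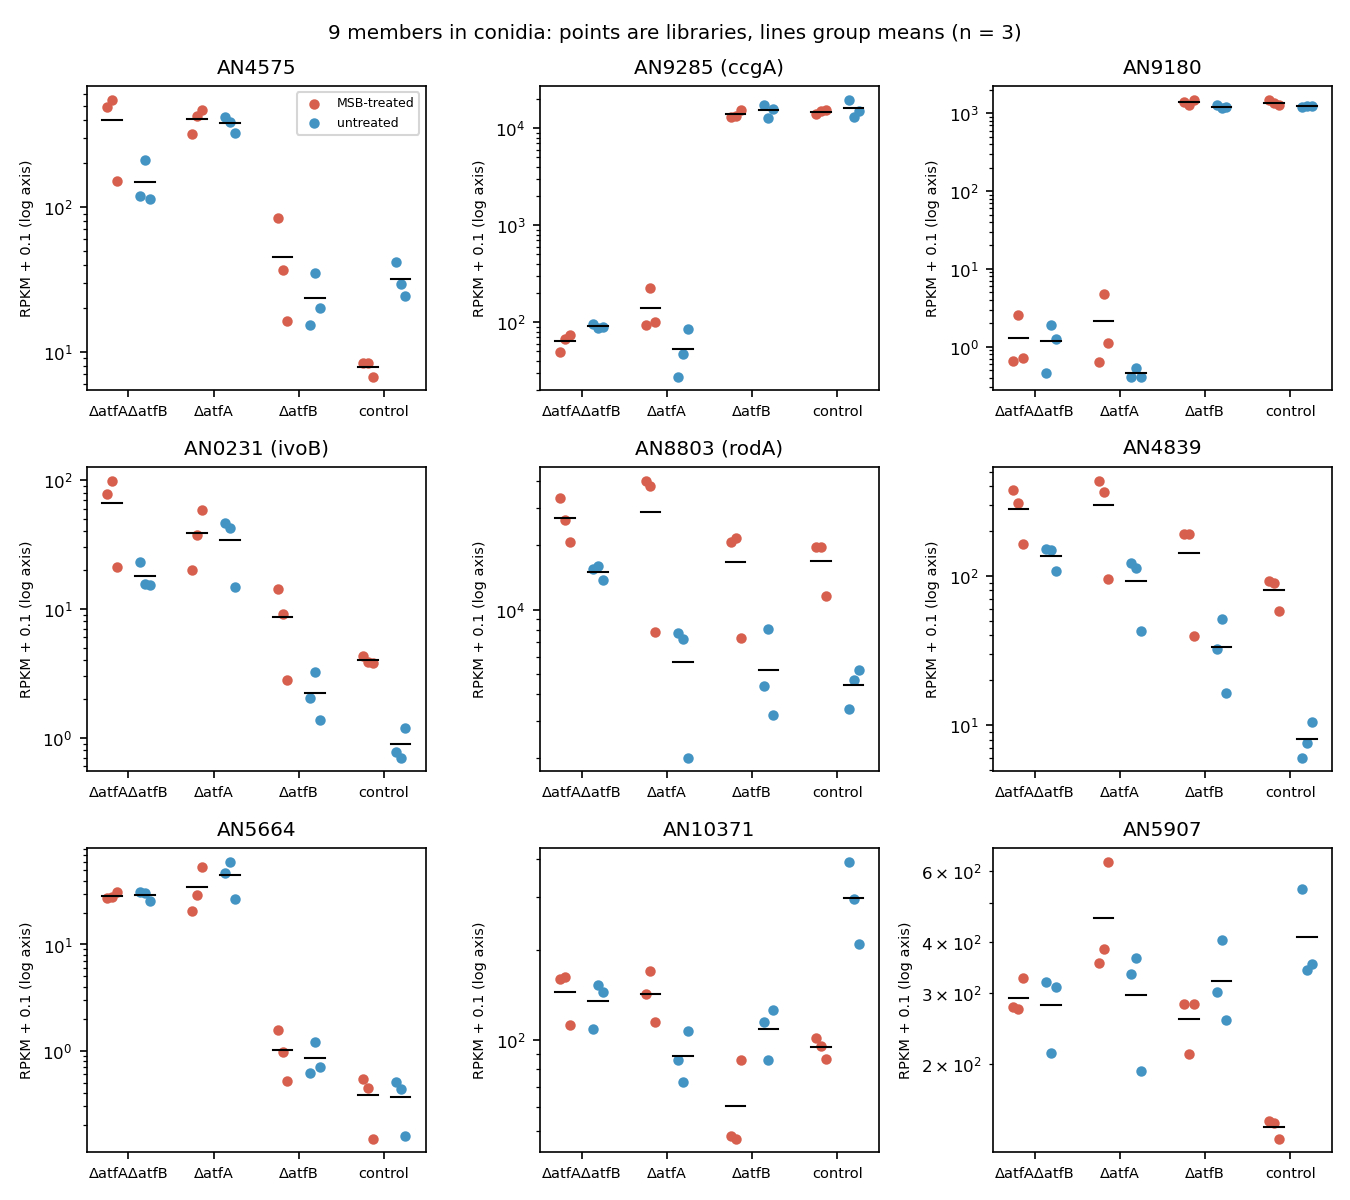
RPKM + 0.1 of 9 selected genes in each conidium library, on log axes, with MSB-treated points left of untreated ones in each strain and lines at the group means (n = 3). *ccgA* and AN9180 are low and AN5664 and *ivoB* high in Δ*atfA*Δ*atfB* and Δ*atfA* conidia, while *rodA* and AN4839 are higher with MSB than without in control conidia.

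The sets defined by the conidial calls are set side by side in mycelia, without a test of their difference. With MSB, 48 of the 52 genes higher in untreated Δ*atfA* conidia were called lower in Δ*atfA* mycelia, against 33 of the 42 not called in conidia and 19 of the 42 lower there. In Δ*atfB* mycelia these counts were 51, 41 and 30. Over all 137 genes 73.7% were called lower in Δ*atfA* and 89.8% in Δ*atfB* mycelia, against 7.53% and 7.03% of all genes tested. In untreated Δ*atfA* mycelia 2, 3 and 11 genes of the sets, in the same order, were under 1 RPKM, where a fall can hardly be called. Untreated Δ*atfA* mycelia held medians of 28, 26.4 and 2.71 RPKM of the 3 sets, against 69.1, 68.2 and 38.6 RPKM in untreated control mycelia.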

How the data were processed

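RNA of mycelia and conidia had been sequenced with TruSeq libraries. Reads were mapped with HISAT2 2.1.0, per the labels and the study's methods, and the genome build and counting tool are not given in the sources used here. The deposited table holds raw read counts per gene and RPKM that the authors computed with edgeR, and no per-sample column was left out. RPKM chose the 137 genes and gave the levels. Counts were tested in edgeR 4.0.16 (quasi-likelihood F test, RLE scaling, R 4.3.3) within each cell type, on genes at 0.5 RPKM or more in 3 or more libraries, with group means in mycelia and group means plus batch in conidia. Genes were called at a Benjamini-Hochberg adjusted p under 0.05 over all genes tested and an absolute log2 fold change over 1. SE is the log2 fold change divided by the root of F. Differences of MSB responses were contrasts of the same fit. The members, lists and comparisons were chosen with earlier results of these data known. Named genes were the 10 highest untreated, the 10 with the lowest ratio, and up to 4 per direction and comparison with the largest called change, and exceptions are marked. Genes named by comparison needed groups whose libraries did not overlap and a mean of 10 RPKM or more in a group. For differences of responses, the libraries of the strains had to be apart untreated or with MSB. Separation of libraries in genes named so is therefore no further evidence. Deviations of same-numbered MSB-treated and untreated libraries correlated by over 0.1 in all 3 pairs for Δ*atfA* conidia alone (0.227, 0.350 and 0.376). No fit modelled these as pairs. The fit was tested on simulated data. Alternatives were TMM scaling, no filter, DESeq2 1.42.0, limma 3.58.1 on log2(RPKM + 0.1) and log2(RPKM + 1), a replicate block, batch 1 alone in conidia, and each library left out. Gene names come from the study's lists and RefSeq assembly ASM1142v1. No sequence is shown, since none was at hand for this build.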

Additional observations from a re-analysis of the deposited data

Results flagged for a closer look

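The MSB response differed between strains by a test of the difference itself for part of the 137 genes. Between Δ*atfA*Δ*atfB* and Δ*atfB* mycelia it was more negative in Δ*atfA*Δ*atfB* for 31 genes and less negative or positive for 8. The differences were −5.48 for *ivoB* (AN0231), −5.37 for *abnC* (AN8007), −5.08 for the hydrophobin gene AN6401, −3.54 for AN1941, −3.29 for *agnE* (AN1604), −2.89 for *agsA* (AN5885), −2.44 for the chitin deacetylase gene AN9380 and −2.19 for *brlA* (AN0973) on the log2 scale. In the other direction they were 3.77 for AN9180, 3.00 for AN7217, 2.66 for AN6005 and 2.39 for the predicted oxidoreductase gene AN10399. These 4 genes are among the 23 with no called fall in Δ*atfA*Δ*atfB* mycelia, whose untreated median there was 1.79 RPKM. AN9180 had few reads in every Δ*atfA*Δ*atfB* mycelium library, so the fitted size of its difference depends on few reads. The call of AN10399 was lost in 4 of the alternatives, at 1.33 without replicate 2 of MSB-treated Δ*atfA*Δ*atfB* mycelia, 2.06 without replicate 1 of untreated Δ*atfB*, 2.25 without replicate 2 of untreated Δ*atfA*Δ*atfB* and 2.08 with limma on log2(RPKM + 0.1). That of *brlA* was lost with limma on log2(RPKM + 1), at −1.03.

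Between Δ*atfA*Δ*atfB* and Δ*atfA* mycelia the response was more negative in Δ*atfA*Δ*atfB* for 10 genes and less negative or positive for 37. The differences were −2.96 for AN2922, −2.10 for the galactose dehydrogenase gene AN3524, −2.09 for AN5975 and −1.93 for AN5907. They were 3.87 for *easC* (AN2548), 3.60 for *agnE* (AN1604), 3.35 for *easB* (AN2547), 3.19 for AN6401, 2.55 for AN2546 and 2.47 for *easD* (AN2549). In *agnE* the MSB-treated Δ*atfA* libraries held 6, 1 and 1 reads, and in AN6401 one of them held none, so the fitted sizes of those differences depend on few reads. Without replicate 2 of MSB-treated Δ*atfA*Δ*atfB* mycelia the calls of both were lost, at 2.28 for *agnE* and 2.21 for AN6401, and that of AN6401 was also lost without replicate 2 (2.55) or 3 (2.88) of MSB-treated Δ*atfA* mycelia. The call of AN2922 was lost at −2.64 without replicate 3 of MSB-treated Δ*atfA* mycelia, and that of AN5975 at −1.72 without replicate 2 of untreated Δ*atfA*Δ*atfB* mycelia.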

How the results depend on the processing

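Of 508 recomputed counts of called genes, 431 stayed within 1.5 times the value given and 77 did not, and of 2324 recomputed values of named genes 2235 kept direction and call, 82 lost and 7 gained a call, and none reversed. The rule selected 117 genes with 1 RPKM added, 129 on RLE-scaled RPKM and 125 to 171 with one control mycelium library left out (171 without MSB replicate 2). The cause of these moves was not tested. With DESeq2, 1 gene was higher with MSB in Δ*atfA* mycelia and 1 lower in Δ*atfA*Δ*atfB* than Δ*atfA* with MSB, 5 and 7 were lower and higher with MSB in Δ*atfA*Δ*atfB* conidia, and 7 higher in MSB-treated conidia labelled Δ*atfB* than in control. With limma on log2(RPKM + 0.1) these were 2, 1, then 0 higher in Δ*atfA*Δ*atfB* conidia and 0 lower and 8 higher in those labelled Δ*atfB*, with 14 and 79 higher in untreated conidia labelled Δ*atfB* and in Δ*atfA*Δ*atfB*, and 18 more negative responses in Δ*atfA*Δ*atfB* than Δ*atfA* mycelia. With log2(RPKM + 1), 23 such responses and 17 less negative ones against Δ*atfB* were called, 1 gene was lower in Δ*atfA*Δ*atfB* than Δ*atfA* with MSB, 7 and 1 were higher with MSB in Δ*atfA* and Δ*atfA*Δ*atfB* conidia, 27 lower in untreated Δ*atfA* conidia, 10 higher in untreated and 1 lower in MSB-treated conidia labelled Δ*atfB*. In batch 1 alone MSB called 7 lower and 22 higher in Δ*atfA*Δ*atfB* conidia and 13 lower and 21 higher in those labelled Δ*atfB*, which against control had 8 higher untreated, and 4 lower and 13 higher with MSB.

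Same-numbered libraries of mycelia did not deviate together (correlations −0.227 to 0.107). In conidia the correlations ran between −0.158 and 0.488, and only in Δ*atfA* did all 3 pairs exceed 0.1. No fit modelled pairs within a strain: the replicate block was a term shared by all strains of a cell type. With the replicate block Δ*atfA* conidia had 22 genes lower and 15 higher with MSB, in place of 22 and 17. With the block elsewhere, 1 in place of 0 genes was higher with MSB in Δ*atfA* mycelia and 3 in place of 5 higher in untreated conidia labelled Δ*atfB*.

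With each library left out in turn, the counts ranged as follows. In mycelia, 0 to 1 gene was higher with MSB in Δ*atfA* and in Δ*atfB*. Against Δ*atfB*, the responses in Δ*atfA*Δ*atfB* were more negative for 24 to 47 and less negative for 5 to 12, with 3 to 5 genes higher untreated and 1 to 2 with MSB. Against Δ*atfA*, 0 to 1 was lower and 37 to 65 higher with MSB, and 9 to 18 responses were more negative. In conidia MSB called 0 to 4 lower and 0 to 12 higher in Δ*atfA*Δ*atfB*, 13 to 29 and 9 to 21 in Δ*atfA*, 0 to 9 and 0 to 13 in those labelled Δ*atfB*, and 23 to 37 lower in the control. Conidia labelled Δ*atfB* had 6 to 16 lower and 1 to 6 higher than control untreated, and 1 to 3 lower with MSB.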
